A study of Mus musculus with 37 samples.

Results

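The 9 genes described here encode secreted ligands of the transforming growth factor beta superfamily: Bmp2, Bmp4, Bmp5, Bmp6 and Bmp7 (bone morphogenetic proteins), Tgfb1, Tgfb2 and Tgfb3 (the TGF-beta isoforms), and Inhba (the activin A subunit). They are a list of symbols, and all 9 are among the 25239 gene rows of the count table. All 9 also passed the filter on low counts, which kept 15046 genes. Ligands of this superfamily act as dimers that bring type I and type II receptor kinases together, which phosphorylate Smad proteins that then enter the nucleus. In the embryonic heart, BMPs secreted by myocardium pattern the atrioventricular canal and outflow tract, and TGF-beta isoforms take part in turning endocardial cells into cushion mesenchyme, the precursor of valves and septa.

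RNA was sequenced from 37 hearts of mouse embryos at E10.5, when the heart tube has looped and cushions are forming. Each embryo had a father whose germ cells express Stra8-iCre, so that the paternal Nipbl allele was either Flox, which counts as wild-type, or FIN, which is null. The mother carried 1 Isl1 allele with Cre inserted, which is the Isl1-deficient allele. The groups are wild-type (Nipbl +/+; Isl1 +/+; n = 10), Isl1_het (Isl1 +/-; n = 9), Nipbl_het (Nipbl +/-; n = 9) and double_het (Nipbl +/-; Isl1 +/-; n = 9). Nipbl encodes the cohesin loader and Isl1 a LIM homeodomain transcription factor of second heart field progenitors. Isl1_het and double_het hearts therefore carry Cre beside the Isl1 loss, and these cannot be told apart. The labels also carry a set number, the figure after the letters IVF, whose meaning they do not spell out. Sets 2, 5 and 6 hold all 4 genotypes, set 1 holds only wild-type and Isl1_het, and set 7 is 1 double_het library (replicate 2), which a set term fits exactly and which then informs no genotype difference.

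Library totals ran from 23.4 M to 51.0 M counts. Levels are given as CPM, counts relative to the TMM-scaled library size. Nipbl, the targeted gene, was at 60.0 ± 10.1 CPM in wild-type (SD, n = 10), 61.5 ± 5.88 in Isl1_het (SD, n = 9), 39.3 ± 13.8 in Nipbl_het (SD, n = 9) and 38.1 ± 7.41 in double_het (SD, n = 9). Of the Nipbl_het libraries, 8 lay between 27.1 and 44.9 CPM, while replicate 2 was at 72.4 CPM and so went against its label. Without it the Nipbl_het mean was 35.2 ± 6.34 CPM (SD, n = 8). It is called the library labelled Nipbl_het replicate 2. It stood apart across the transcriptome, lying outside the range of all 36 others for 57.7% of the 15046 genes, against 0.638% to 15.8% for each of the others. Isl1 transcripts were at 7.37 ± 2.24 CPM in wild-type (SD, n = 10), 6.28 ± 1.76 in Isl1_het, 13.0 ± 2.82 in Nipbl_het and 9.50 ± 3.51 in double_het (SD, n = 9 each); the averaged Isl1 effect on Isl1 itself, −0.33 (SE 0.14), had an edgeR adjusted p of 0.322, so the transcript level gives only a weak check of the Isl1 labels. Isl1 rose by 0.79 in Nipbl_het against wild-type (SE 0.19, edgeR adjusted p 0.0252) and by 0.65 in the averaged Nipbl effect (SE 0.15, adjusted p 0.00655), where 3 of 7 second heart field markers passed the threshold. Cardiomyocyte markers (Tnnt2, Myh6, Actc1 and 5 others) summed to between 30400 and 47900 CPM in every library, while the foregut endoderm list summed to between 0.553 and 12.8 CPM and the liver list to between 2.12 and 378 CPM, the highest in a Nipbl_het library. The defining genes Shh and Alb had no count in 32 and 21 of 37 libraries.

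Per kilobase of exon, Bmp7 was the most abundant of the 9 ligands and Inhba the least. In wild-type hearts, Bmp7 stood at 44.96 ± 6.32 CPM per kb (SD, n = 10), Bmp4 at 25.5 ± 3.71, Tgfb2 at 13.1 ± 1.98, Bmp2 at 12.7 ± 1.70, Bmp5 at 10.2 ± 1.83, Tgfb1 at 8.00 ± 1.13, Tgfb3 at 4.81 ± 0.583, Bmp6 at 2.99 ± 0.511 and Inhba at 0.631 ± 0.371. Most neighbours in this order kept it in 37 of 37 libraries: Bmp7 over Bmp4, Bmp4 over Tgfb2, Tgfb1 over Tgfb3, Tgfb3 over Bmp6 and Bmp6 over Inhba. Tgfb2 and Bmp2 could not be ranked, with Tgfb2 higher in 18 of 37 libraries. Bmp2 was above Bmp5 in 35 and Bmp5 above Tgfb1 in 28. The median share of the summed ligand level per kb was 35.3% for Bmp7, 19.9% for Bmp4 and 0.668% for Inhba. The plot of levels per exon length shows this order by genotype.

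**Figure D1:**
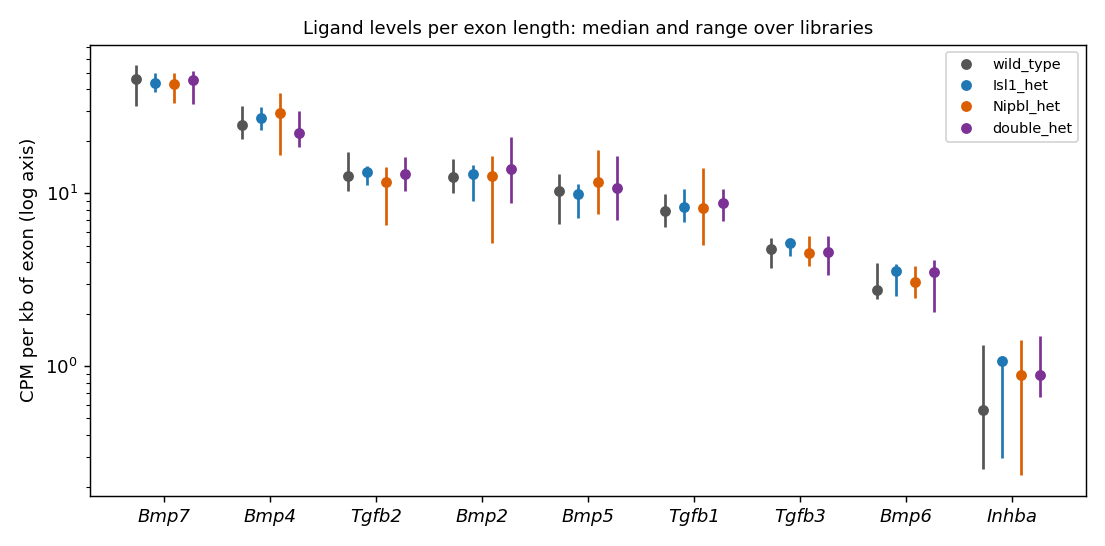
Levels of the 9 ligands in CPM per kb of merged exon (y axis, logarithmic), ordered by the wild-type mean. Points are medians and lines run from the lowest to the highest library in wild-type (n = 10), Isl1_het, Nipbl_het and double_het (n = 9 each). Bmp7 lies highest and Inhba lowest in each genotype, and the genotypes overlap for every ligand.

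No ligand passed the threshold in any of 8 comparisons (0 of 9 in each; edgeR quasi-likelihood test with set number as covariate, adjusted p under 0.05 over all 15046 genes). The smallest adjusted p among them was 0.233, for Inhba in the averaged Isl1 effect (1 against 2 working Isl1 alleles, with equal weight for each Nipbl state; the averaged Nipbl effect is its counterpart). The background share of genes called was 0% in Isl1_het against wild-type, 1.71% in Nipbl_het against wild-type, 2.6% in double_het against wild-type, 0.957% in double_het against Isl1_het, 0% in double_het against Nipbl_het, 0% in the interaction, 4.02% in the averaged Nipbl effect and 0.173% in the averaged Isl1 effect. With 9 genes, a count of 0 is near those shares. At an unadjusted p under 0.05, 1 of 9 ligands passed in Isl1_het (Inhba), 1 in Nipbl_het (Tgfb1) and 1 in double_het (Inhba), each against wild-type, where 5.89%, 15.1% and 11.6% of all genes did. In double_het against either single heterozygote, and in the averaged Nipbl effect, 0 of 9 passed it, against 7.49%, 9.01% and 14.9% of all genes. In the averaged Isl1 effect 2 of 9 did (Inhba and Bmp5), against 12.2%, and in the interaction 1 of 9 (Bmp4), against 2.73%. DESeq2 with the same design called 0 of 9 in each of the 8 comparisons, where it called between 0% and 5.4% of all genes.

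The intervals show how large a change the data leave room for. For the 8 ligands other than Inhba, the fitted log2 changes in the averaged Nipbl effect lay between −0.13 and 0.15, and their 95% intervals lay within 0.818-fold to 1.25-fold. In the averaged Isl1 effect they lay between −0.15 and 0.13, with intervals within 0.814-fold to 1.23-fold. Against wild-type, the intervals of these 8 ligands stayed within 0.784-fold to 1.32-fold in Isl1_het, 0.755-fold to 1.36-fold in Nipbl_het and 0.815-fold to 1.35-fold in double_het. Without the library labelled Nipbl_het replicate 2, the intervals in Nipbl_het lay within 0.826-fold to 1.38-fold. The median log2 change of the 9 ligands was 0.06 in Isl1_het, 0.05 in Nipbl_het and 0.02 in double_het against wild-type, and that of all genes tested was −0.003, 0.008 and −0.002. In bulk hearts, fewer ligand-producing cells and less RNA per cell cannot be told apart. The labels do not say which hearts share a litter, so p-values measure the spread between these libraries.

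**Figure D2:**
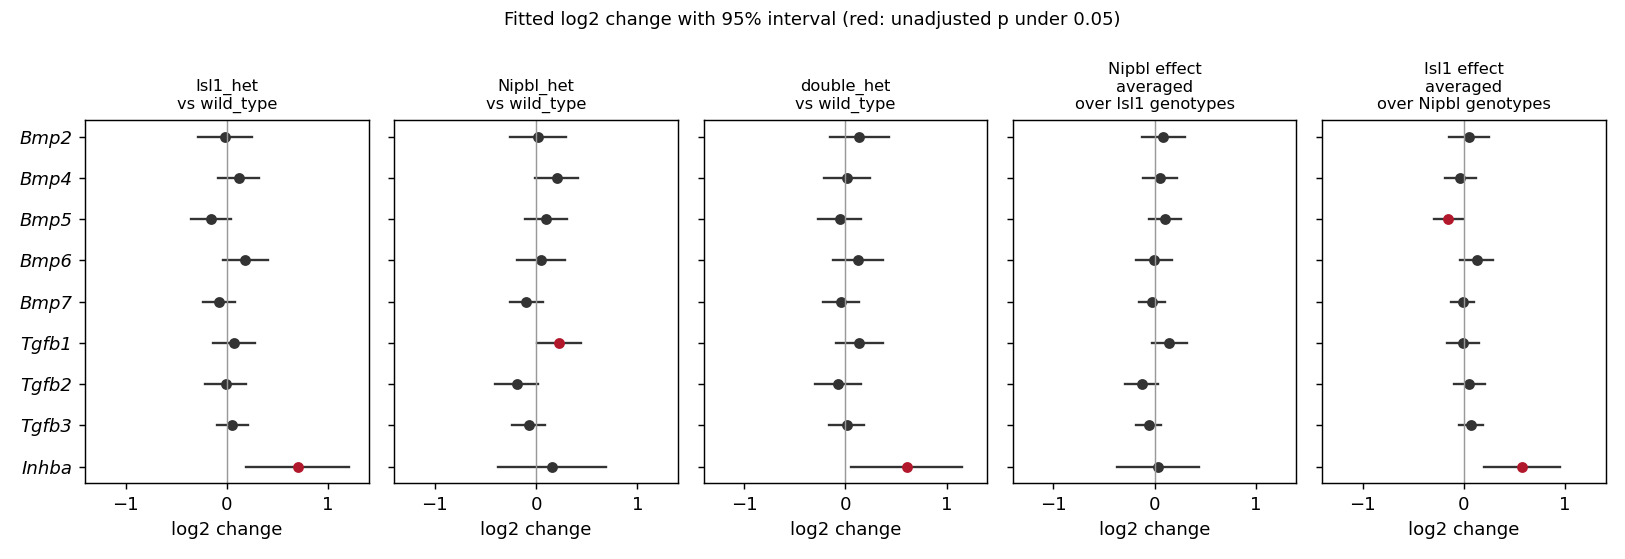
Fitted log2 change (x axis) of each ligand in 5 comparisons, with the 95% interval of the edgeR fit as a line; red points have an unadjusted p under 0.05. Inhba has the widest intervals and lies furthest to the right in Isl1_het, double_het and the averaged Isl1 effect.

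Among the BMP ligands made by myocardium, Bmp2 (chr2:133552159-133562885, GRCm38, + strand), which the atrioventricular canal uses to induce cushion formation, ran in wild-type from 35.99 to 56.5 CPM with a median of 44.2. The lowest, median and highest libraries were 32.0, 46.2 and 51.7 CPM in Isl1_het, 18.3, 45.1 and 58.3 in Nipbl_het, and 31.5, 49.3 and 74.9 in double_het. The groups overlapped, and the spread was widest in double_het. The highest library, double_het replicate 2, is the one of set 7. The fitted change against wild-type was −0.02 (SE 0.13) in Isl1_het, 0.02 (SE 0.14) in Nipbl_het and 0.14 (SE 0.14) in double_het. Without the library labelled Nipbl_het replicate 2 the Nipbl_het change was 0.12 (SE 0.09, adjusted p 0.644, edgeR).

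Bmp4 (chr14:46383520-46390669, − strand), expressed in outflow tract myocardium and second heart field mesoderm and needed for outflow septation, ran from 46.4 to 72.3 CPM in wild-type (median 56.0). It ran from 52.0 to 71.1 in Isl1_het (median 61.3), 37.4 to 85.7 in Nipbl_het (median 65.3) and 42.0 to 67.4 in double_het (median 50.6). Nipbl_het thus held both the lowest and the highest library. Relative to wild-type it differed by 0.20 on the log2 scale in Nipbl_het (SE 0.11, edgeR adjusted p 0.36) and by 0.02 in double_het (SE 0.11). Within sets 2, 5 and 6 the Nipbl_het difference was 0.46, −0.11 and 0.37. Set 5 holds the library labelled Nipbl_het replicate 2, without which the set 5 difference was 0.01 and the fitted change 0.26 (SE 0.10, adjusted p 0.147, edgeR). The interaction, the departure of double_het from the sum of both single changes, was −0.30 for Bmp4 (SE 0.15, unadjusted p 0.0462, adjusted p 0.999, edgeR), the only ligand of 9 under 0.05 unadjusted, while 2.73% of all genes were. The unadjusted p stayed under 0.05 in 11 of the 37 fits that each left out 1 library, in which the interaction ran from −0.37 (p 0.00854, without the library labelled Nipbl_het replicate 2) to −0.25. It was over 0.05 with no set term (−0.32, unadjusted p 0.0654, edgeR) and with the replicate number of the titles in place of the set number. It was also over 0.05 without set 1, 2 or 6 (−0.34, −0.29 and −0.22, the last with an unadjusted p of 0.223, edgeR). The adjusted p was at least 0.712 in all of these fits.

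Bmp5 (chr9:75775364-75900310, + strand) and Bmp7 (chr2:172868012-172940321, − strand) are close relatives that act redundantly in the myocardium. Bmp5 ran from 26.8 to 51.9 CPM in wild-type (median 41.6), 28.9 to 45.7 in Isl1_het (median 39.9), 30.7 to 72.2 in Nipbl_het (median 47.0) and 28.3 to 66.0 in double_het (median 43.1). Of the 18 hearts with 1 working Isl1 allele, 13 lay below the median of the 19 with 2 working alleles. The averaged Isl1 effect on Bmp5 was −0.15 (SE 0.07, unadjusted p 0.0343, adjusted p 0.373, edgeR), and without the library labelled Nipbl_het replicate 2 it was −0.12 (unadjusted p 0.0675, edgeR). Within sets 2, 5 and 6 it was −0.06, −0.11 and −0.01, all smaller than the fitted value, and without that library set 5 gave −0.05. Set 1, which has only wild-type and Isl1_het, gave −0.29 for Isl1_het, and without set 1 the averaged effect was −0.13 (unadjusted p 0.123, edgeR). The erythroid marker list lay higher in that comparison (7 of 7 tested markers positive, median 1.08, 0 past the threshold and 7 at an unadjusted p under 0.05), and Bmp5 correlated with its mean at r = −0.65 across 37 libraries after set means were removed. With the erythroid mean as a further covariate the effect was −0.05 (unadjusted p 0.469, edgeR), and with the epicardial mean in its place also −0.05 (unadjusted p 0.544, edgeR). The unadjusted p was over 0.05 as well with no set term (−0.10), with the replicate number of the titles in place of the set number, and without set 5 (−0.07). The same held in 5 of the 37 fits that left out 1 library (wild-type replicate 2, 9 or 10, Isl1_het replicate 1 or Nipbl_het replicate 2).

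Bmp7 ran from 129 to 222 CPM in wild-type (median 185), 154 to 200.5 in Isl1_het (median 175), 133 to 199 in Nipbl_het (median 172) and 131 to 206 in double_het (median 183). The 4 groups overlapped almost completely. Its changes against wild-type were −0.08 (SE 0.08) in Isl1_het, −0.09 (SE 0.08) in Nipbl_het and −0.04 (SE 0.09) in double_het. The Nipbl_het value was −0.05 (SE 0.07) without the library labelled Nipbl_het replicate 2. Bmp6 (chr13:38345107-38500302, + strand), a ligand of endocardial and outflow tract cells, had wild-type libraries from 9.61 to 15.4 CPM (median 10.8). Its median was 13.9 CPM in Isl1_het, 12.1 in Nipbl_het and 13.8 in double_het. With 1 working Isl1 allele, 14 of 18 hearts lay above the median of the others, and the averaged Isl1 effect was 0.13 (SE 0.08, adjusted p 0.513, edgeR).

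**Figure D3:**
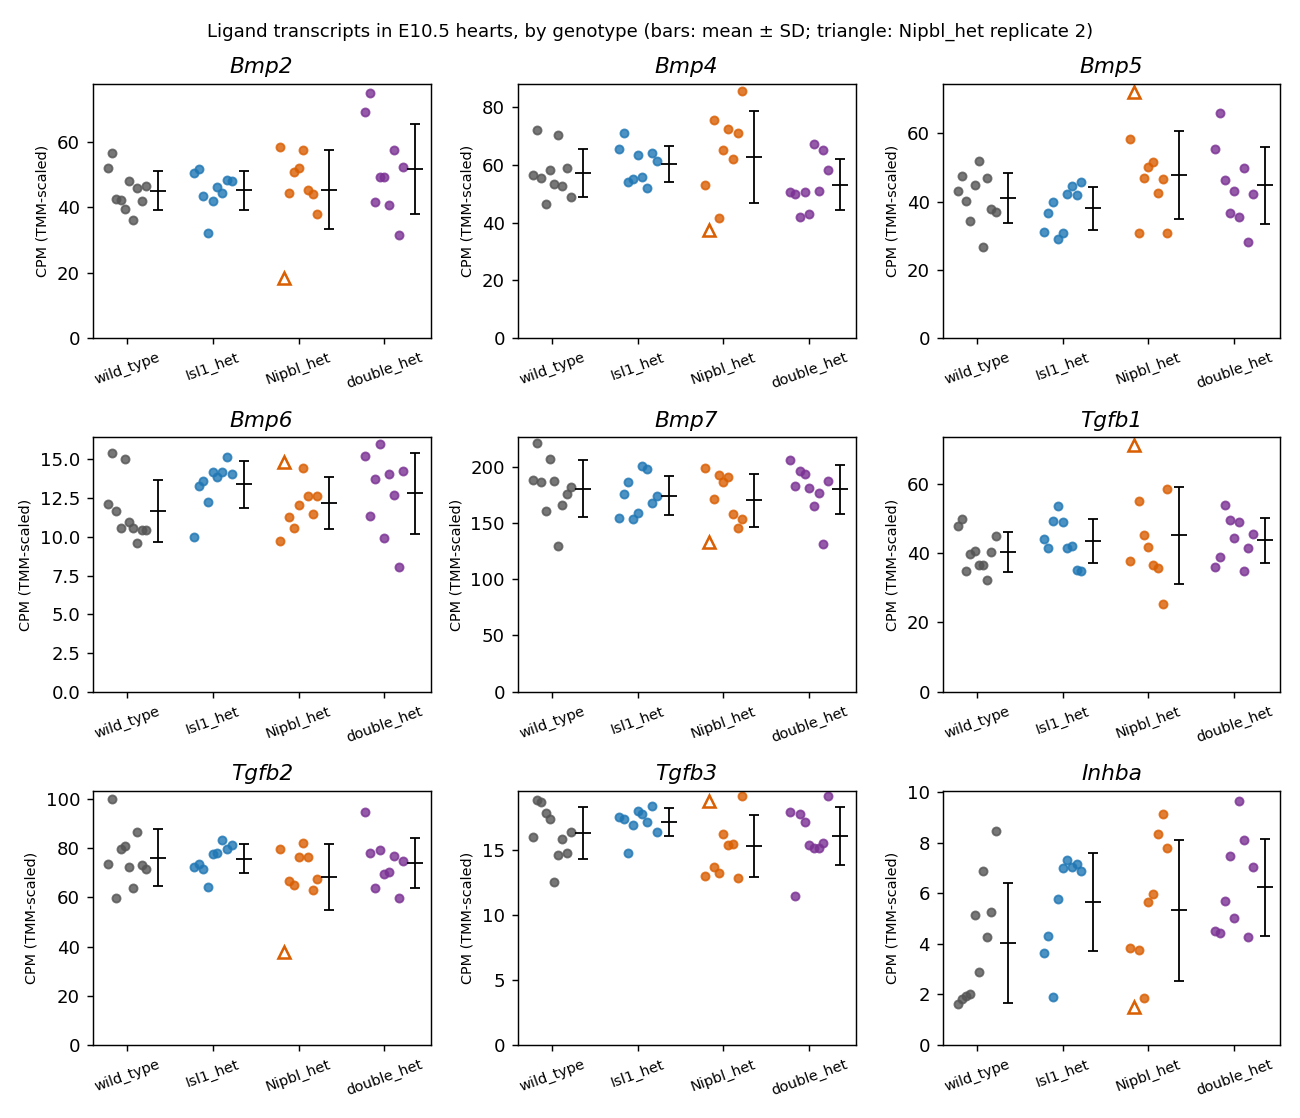
TMM-scaled CPM (y axis, from 0) of each ligand in each of the 37 libraries by genotype; the bar beside each group is its mean ± SD. The triangle is the library labelled Nipbl_het replicate 2, which is the lowest of all libraries for Bmp2, Bmp4, Tgfb2 and Inhba and the highest for Bmp5 and Tgfb1.

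Of the TGF-beta isoforms, Tgfb1 (chr7:25687002-25705077, + strand), made by endothelial and endocardial cells, ran from 32.2 to 49.9 CPM in wild-type (median 40.0). It ran from 34.7 to 53.6 in Isl1_het (median 42.2), 25.2 to 71.1 in Nipbl_het (median 41.7) and 34.8 to 53.8 in double_het (median 44.4). Its log2 change in Nipbl_het was 0.23 (SE 0.11, unadjusted p 0.0448, adjusted p 0.316, edgeR). The unadjusted p stayed under 0.05 in 22 of the 37 fits that left out 1 library and in 4 of 12 other alternatives. It was over 0.05 with DESeq2, with no set term and without set 1, 2 or 5, among others. The highest Nipbl_het value is the library labelled Nipbl_het replicate 2, and without it the change was 0.13 (SE 0.09, unadjusted p 0.148, edgeR). Within sets 2, 5 and 6 the difference was 0.49, 0.24 and −0.10, and that of set 5 was 0.05 without this library, so set 2 carried most of it.

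Tgfb2 (chr1:186622792-186705989, − strand), the isoform whose loss in mice gives outflow tract and septal defects, ran from 59.9 to 100.1 CPM in wild-type (median 73.5). The ranges were 64.4 to 83.5 in Isl1_het (median 77.5), 37.8 to 82.3 in Nipbl_het (median 67.6) and 59.9 to 94.5 in double_het (median 74.7). In Nipbl_het it differed by −0.19 on the log2 scale (SE 0.11, edgeR adjusted p 0.398), and by −0.11 (SE 0.08) without the library labelled Nipbl_het replicate 2, which at 37.8 CPM lay far below the next at 63.0. Tgfb3 (chr12:86056745-86079041, − strand), the isoform linked to cushion mesenchyme, had fitted changes against wild-type of 0.06 in Isl1_het, −0.07 in Nipbl_het and 0.01 in double_het (SE 0.08 in each). Without the library labelled Nipbl_het replicate 2 the Nipbl_het value was −0.10 (SE 0.08). Its group medians were 16.1, 17.4, 15.3 and 15.5 CPM in wild-type, Isl1_het, Nipbl_het and double_het.

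Inhba (chr13:16011851-16031621, + strand), which forms activin A and signals through Smad2 and Smad3, had the largest fitted differences of the 9 in Isl1_het, double_het and the averaged Isl1 effect, and the widest standard errors. In wild-type it ran from 1.64 to 8.45 CPM with a median of 3.59. It ran from 1.90 to 7.30 in Isl1_het (median 6.86), 1.502 to 9.14 in Nipbl_het (median 5.67) and 4.26 to 9.64 in double_het (median 5.71). The groups overlapped, but 15 of 18 hearts with 1 working Isl1 allele lay above the median of the 19 with 2. The log2 difference was 0.70 (SE 0.25, unadjusted p 0.00841, adjusted p 0.736, edgeR) in Isl1_het and 0.61 (SE 0.27, unadjusted p 0.0308, edgeR adjusted p 0.342) in double_het, both relative to wild-type. The Isl1_het value ranged from 0.37 with the epicardial mean as covariate to 1.01 without set 2, and its unadjusted p was over 0.05 with that covariate, with no set term, and without set 1 or set 5. The double_het value had an unadjusted p over 0.05 (edgeR) with that covariate and without set 1, 5 or 6. The same held without any 1 of wild-type replicates 4, 6 and 8 and double_het replicates 4, 6 and 9. Within sets 2, 5 and 6 the double_het difference was −0.07, 0.84 and 1.19. In Nipbl_het the fitted Inhba difference was 0.16 (SE 0.26), or 0.28 (SE 0.25) without the library labelled Nipbl_het replicate 2. The averaged Isl1 effect was 0.57 (SE 0.18, unadjusted p 0.00387, adjusted p 0.233, edgeR), with a 95% interval from 1.15-fold to 1.93-fold, and it was not past the threshold over all genes, where 12.2% of genes had an unadjusted p under 0.05.

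Inhba also differed strongly by set. The mean was 2.55 ± 1.14 CPM in set 1 (SD, n = 6), 6.53 ± 1.95 in set 2 (SD, n = 9), 5.09 ± 2.11 in set 5 (SD, n = 14) and 6.51 ± 2.29 in set 6 (SD, n = 7). Set 1 holds wild-type and Isl1_het hearts only, and its 3 wild-type hearts are 3 of the 4 wild-type libraries at or under 2.02 CPM. Isl1_het was above wild-type by 0.77, 1.14 and 0.95 on the log2 scale within sets 1, 5 and 6 and below it by 0.08 within set 2. The averaged Isl1 difference was 0.08, 1.09 and 0.51 within sets 2, 5 and 6. With no set term the fitted averaged effect was 0.36 (unadjusted p 0.109, edgeR), without set 5 it was 0.28 (unadjusted p 0.199), and without the library labelled Nipbl_het replicate 2, which has the lowest Inhba of all 37, it was 0.48 (unadjusted p 0.00917, edgeR).

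The 7 epicardial markers (Wt1, Tbx18, Upk3b, Upk1b, Aldh1a2, Sema3d and Tcf21) summed to 261 to 463 CPM in wild-type, 307 to 553 in Isl1_het, 407 to 614 in Nipbl_het and 519 to 674 in double_het, with none at 0 in any library. In the averaged Isl1 effect all 7 were positive with a median of 0.30, and 1 of 7 passed the threshold. In Isl1_het against wild-type, where Inhba was at 0.70, 5 of 7 were positive with a median of 0.20 and 0 of 7 passed, with 3 at an unadjusted p under 0.05. In double_het against wild-type, where Inhba was at 0.61, all 7 were positive with a median of 0.51 and 5 of 7 passed. In the averaged Nipbl effect 6 of 7 were positive with a median of 0.28 and 3 of 7 passed, while Inhba was at 0.03 (SE 0.20). That Inhba value is not a stable one: it was −0.15, −0.25 and 0.68 within sets 2, 5 and 6, and it ran from −0.32 to 0.40 over the 12 alternatives other than leaving out 1 library (lowest unadjusted p 0.0187, lowest adjusted p 0.13, edgeR). In double_het against Isl1_het their median was 0.31 with 1 of 7 past the threshold, while Inhba was at −0.09 (SE 0.27). Inhba correlated with the mean of this list at r = 0.56 and with that of the cushion mesenchyme list at r = 0.68 (37 libraries, set means removed, a description over libraries that share their scaling). With the endocardial list r was 0.49, or 0.30 without the library labelled Nipbl_het replicate 2. In the averaged Isl1 effect 7 of 8 cushion markers were positive (median 0.08) and 8 of 8 endocardial markers (median 0.13), with 0 past the threshold in either list. With the epicardial mean as a further covariate, the averaged Isl1 effect on Inhba was 0.21 (unadjusted p 0.331, edgeR) and the double_het difference from wild-type was −0.11 (unadjusted p 0.751, edgeR). With the erythroid mean in its place they were 0.53 and 0.57. The epicardial sums differ by genotype, without overlap between wild-type and double_het, so the epicardial covariate takes up part of the genotype difference. A fit with it cannot separate the epicardial list from genotype, here or for the other genes fitted with it. An antisense pseudogene, B230303A05Rik, overlaps the span of Inhba and is a row of the table. Whether their exons overlap was not checked, and the counting's strand setting is not given in the sources used here. Any effect on the counts is therefore unknown. The same holds for Bmp4, Bmp6 and Tgfb3, which the opposite-strand genes Gm15217, Txndc5 and Ttll5 overlap.

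**Figure D4:**
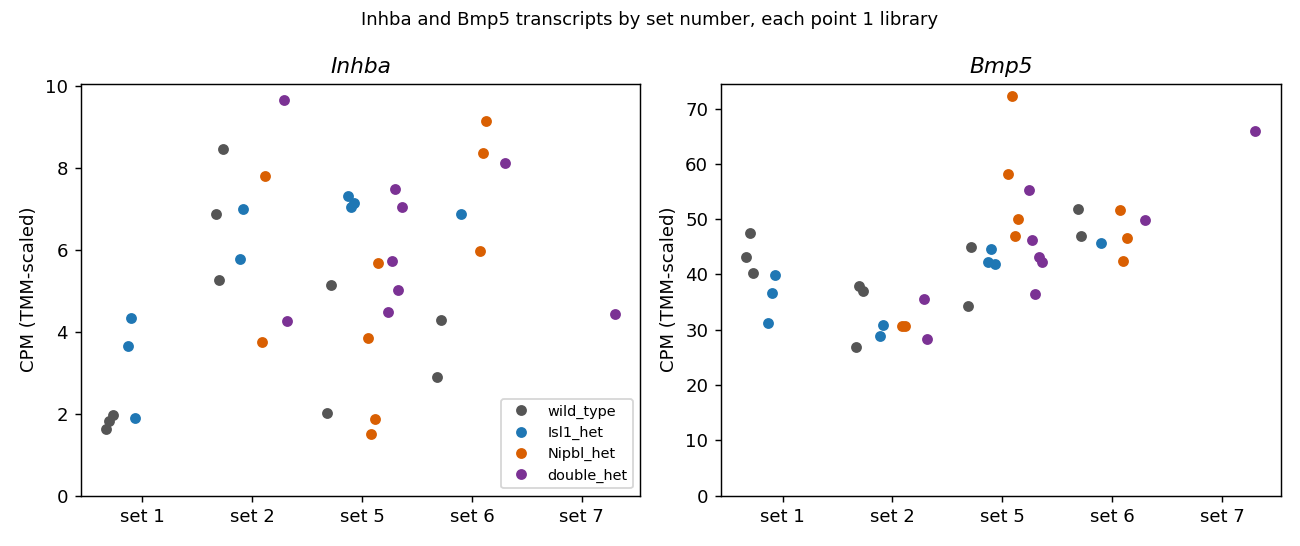
TMM-scaled CPM (y axis, from 0) of Inhba and Bmp5 by set number (x axis), each point 1 library coloured by genotype. The mean of Inhba is lowest in set 1, and Bmp5 is on average lower in set 2 than in sets 5 and 6 in every genotype.

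The set number was associated with expression for 5 of the 9 ligands beside genotype (adjusted p under 0.05, edgeR), as it was for 5745 of the 15046 genes. The adjusted p was 8.23e-05 for Bmp5, 0.00285 for Inhba, 0.00621 for Tgfb1, 0.0235 for Bmp4 and 0.0455 for Tgfb3, and it was 0.0577 for Bmp2, 0.0599 for Bmp7, 0.514 for Tgfb2 and 0.553 for Bmp6. Bmp5 stood at 31.9 ± 3.98 CPM in set 2 (SD, n = 9) and at 47.9 ± 3.47 in set 6 (SD, n = 7), while its genotype means ran only from 38.0 to 47.7.

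The promoters of the ligands with an unadjusted p under 0.05 for the averaged Isl1 effect, Inhba and Bmp5, are printed because ISL1 is a homeodomain protein and such proteins bind DNA around a TAAT core. Each runs from 250 bases before to 50 after the RefSeq start (GRCm38.p6), at chr13:16011601-16011900 (+ strand) and chr9:75775115-75775414 (+ strand), and capitals mark TAAT on either strand.
Inhba: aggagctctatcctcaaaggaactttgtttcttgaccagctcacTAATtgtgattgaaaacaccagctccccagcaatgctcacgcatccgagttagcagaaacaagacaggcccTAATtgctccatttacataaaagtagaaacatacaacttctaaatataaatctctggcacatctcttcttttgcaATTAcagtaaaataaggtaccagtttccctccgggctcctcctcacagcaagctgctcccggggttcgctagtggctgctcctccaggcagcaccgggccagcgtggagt
Bmp5: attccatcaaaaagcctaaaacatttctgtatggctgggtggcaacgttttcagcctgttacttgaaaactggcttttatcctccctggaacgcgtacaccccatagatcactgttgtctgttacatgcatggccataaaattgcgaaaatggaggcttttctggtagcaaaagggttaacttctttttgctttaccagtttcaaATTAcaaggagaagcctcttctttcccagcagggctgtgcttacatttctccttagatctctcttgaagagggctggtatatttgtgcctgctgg
TAAT or its complement ATTA occurs 3 times in the Inhba promoter and 1 time in that of Bmp5, and 58.03% of 32851 promoters of this length hold at least 1 match and 20.04% at least 3. The longer site CTAATG (or CATTAG) is in neither, and 7.36% of promoters hold it. Promoters were matched for 6 of the 9 ligands. Of the others matched, Bmp4 and Tgfb2 also hold 1 TAAT match each, and Tgfb1 and Bmp6 hold 0. A match of letters shows no binding.

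Some ligands varied together across hearts of a set. Over 37 libraries with set means removed, the highest correlations of log2 CPM were Bmp2 with Tgfb2 (r = 0.80), Bmp2 with Bmp7 (0.67) and Bmp7 with Tgfb2 (0.65). Without the library labelled Nipbl_het replicate 2 these were 0.52, 0.48 and 0.45, so part of each rests on it, and the highest was then Bmp5 with Bmp7 (0.73, against 0.24 with it). Bmp6 with Tgfb3 was at 0.51 with and 0.49 without that library. Libraries share their scaling and cell makeup, so these values only describe them.

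**Figure D5:**
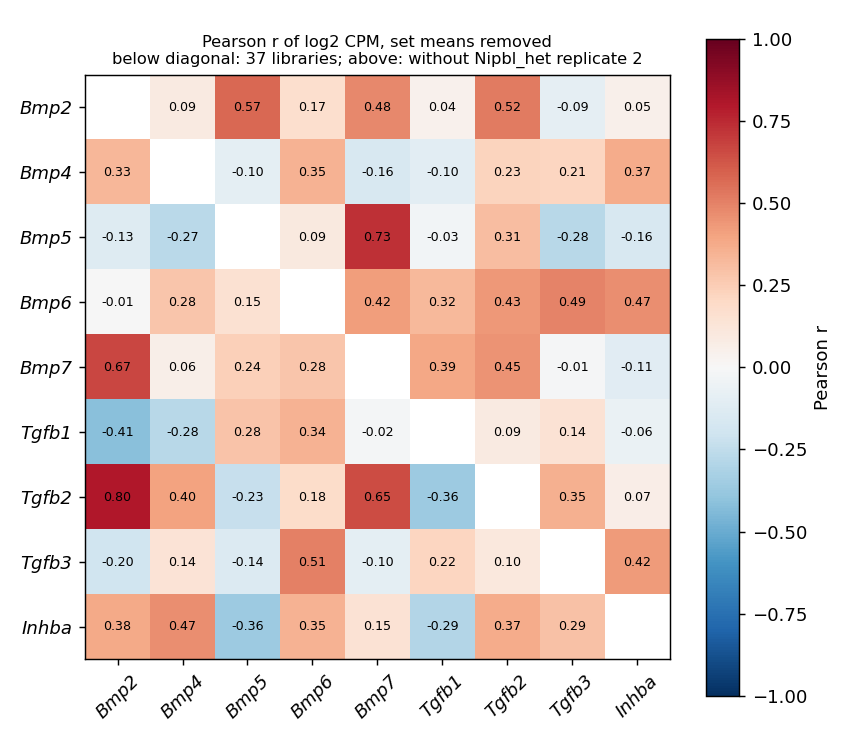
Pearson correlation of log2 CPM between ligands after set means were removed, below the diagonal over 37 libraries and above it without the library labelled Nipbl_het replicate 2. Bmp2 with Tgfb2 goes from 0.80 to 0.52, and Bmp5 with Bmp7 from 0.24 to 0.73.

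Among 12079 genes compared, all with mean log2 CPM at or over 1, the pattern most like that of Inhba was Meox1 (r = 0.83), a homeobox gene of somite mesoderm, followed by St3gal4 (0.82) and P4ha3 (0.81), an enzyme of collagen maturation. For Bmp6 it was Tgfbi (0.74), Cd34 (0.71), a surface marker of endothelial cells, and Mmp2 (0.68). For Tgfb3 it was Cxcl12 (0.60) and Tgfbi (0.59), the lowest likeness of the 9. For Bmp4 it was Psd (0.70), Slc39a6 (0.69) and Gata3 (0.67), a transcription factor. These 4 ligands kept r between 0.57 and 0.79 with those genes without the library labelled Nipbl_het replicate 2. Bmp5 was most like Erbb4 (0.84), the neuregulin receptor of cardiomyocytes, Rassf5 (0.82) and Pwwp3b (0.81). Bmp7 was most like Actr1b (0.88), Col2a1 (0.86) and Abtb2 (0.86), and Tgfb1 like Lmf2 (0.87), Tsc22d4 (0.86) and Dennd4b (0.84). Bmp2 was most like Tril (0.88), Nxpe3 (0.88) and Klc2 (0.88), and Tgfb2 like Phtf2 (0.89), Sdc3 (0.87) and Has2 (0.86), the hyaluronan synthase of cushion matrix. Without that library the values were between 0.64 and 0.75 for Bmp2 and Tgfb2, and between 0.72 and 0.83 for Bmp5, Bmp7 and Tgfb1.

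The rest of the pathway was followed through a list of 86 genes, of which 76 passed the filter. In Nipbl_het against wild-type 0 rose and 1 fell (Tgfbr3), in double_het 2 rose (Amhr2, Tll1) and 1 fell (Tgfbr3), and in the averaged Nipbl effect 2 rose (Fstl3, Tll1) and 2 fell (Pcsk6, Tgfbr3), all by edgeR at an adjusted p under 0.05. In the other 5 comparisons 0 of 76 passed. Of all genes, 1.2% rose and 0.518% fell in Nipbl_het, 1.77% rose and 0.824% fell in double_het, and 2.67% rose and 1.36% fell in the averaged Nipbl effect, so these counts are near the background. In double_het against Isl1_het 0.532% rose and 0.425% fell, and in the averaged Isl1 effect 0.146% rose and 0.0266% fell. The median log2 change of the 76 genes was 0.02 in Nipbl_het, 0.07 in double_het and 0.06 in Isl1_het against wild-type. Of the Smads, 0 of 8 passed in any comparison, and of the 14 tested ligands outside the 9, 0 passed.

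Of the receptors, Tgfbr3, which encodes betaglycan and presents TGF-beta2 to the signalling receptors, fell with Nipbl loss in the fit with set number. It ran from 34.1 to 65.8 CPM in wild-type (median 45.6), 35.7 to 61.9 in Isl1_het (median 44.1), 27.1 to 50.9 in Nipbl_het (median 45.8) and 29.7 to 54.3 in double_het (median 47.0). Of the 18 hearts with 1 working Nipbl allele, 11 lay above the median of the 19 with 2, against the direction of the fit. The groups overlapped and their medians were close, so the difference shows within sets: the averaged Nipbl difference was −0.55, −0.18 and −0.42 within sets 2, 5 and 6. The fitted averaged effect was −0.38 (SE 0.07, adjusted p 0.00112, edgeR). A fit with no set term gave −0.18 (edgeR adjusted p 0.235), and leaving out set 2 gave −0.31 (adjusted p 0.103). In double_het against wild-type it was −0.38 (adjusted p 0.0325, edgeR), and the call was lost without any 1 of 5 libraries (wild-type replicates 9 and 10, double_het replicates 6, 8 and 9), with adjusted p up to 0.0816. It was also lost with no set term (−0.16), with either marker covariate, and without set 1, 2, 5 or 6. The change stayed between −0.45 and −0.34 in the 37 fits that left out 1 library, each with an unadjusted p under 0.05 (edgeR). Over the other 12 alternatives it ran from −0.47 to −0.15, with an unadjusted p under 0.05 in 9. The Nipbl_het call (−0.42, SE 0.10, edgeR adjusted p 0.0142) was lost with no set term (−0.23), with the epicardial covariate, and without set 2 or set 6. Amhr2, the type II receptor for anti-Müllerian hormone, rose in double_het by 0.61 (SE 0.16, adjusted p 0.0289, edgeR) at 2.52 ± 0.813 CPM (SD, n = 9) against 1.73 ± 0.355 in wild-type (SD, n = 10). Within sets 2, 5 and 6 the difference was 0.95, 0.29 and −0.17, so set 6, with 1 double_het heart, went the other way. With the epicardial mean as covariate it was 0.44 with an adjusted p of 0.75, and the call was also lost without set 1, 2 or 5. In addition 7 libraries each ended the call when left out (wild-type replicates 7 and 10, double_het replicates 4, 5, 6, 8 and 9), with adjusted p up to 0.11. The change stayed between 0.52 and 0.70 in the 37 fits that left out 1 library, each with an unadjusted p under 0.05 (edgeR). Over the other 12 alternatives it ran from 0.42 to 0.74.

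Of the extracellular modulators, Fstl3, a follistatin-like protein that binds and blocks activins, rose in the averaged Nipbl effect, with a log2 change of 0.54 (SE 0.14, edgeR adjusted p 0.0159). It ran from 4.79 to 7.61 CPM in wild-type (median 5.41), 4.77 to 6.79 in Isl1_het (median 6.01), 6.36 to 22.9 in Nipbl_het (median 7.63) and 5.73 to 12.9 in double_het (median 7.68). The value of 22.9 is the library labelled Nipbl_het replicate 2, and without it the effect was 0.45 (SE 0.09, adjusted p 0.00185, edgeR). Within sets 2, 5 and 6 it was 0.25, 0.59 and 0.54, with set 5 at 0.37 without that library, and no single library ended the call, while leaving out set 2 or set 6 did (adjusted p 0.0662 and 0.0988). Tll1, a protease that cleaves the BMP antagonist chordin and is needed for septation in mice, rose in double_het by 0.67 (SE 0.17, adjusted p 0.0258, edgeR) from a low level, 2.13 ± 0.803 CPM in wild-type (SD, n = 10) to 3.88 ± 1.17 in double_het (SD, n = 9). Leaving out any 1 of 5 libraries (wild-type replicates 4 and 10, double_het replicates 1, 6 and 7) lost it, with adjusted p up to 0.0749, and so did the epicardial covariate and leaving out set 1, 2, 5 or 6, while the fitted change stayed between 0.63 and 0.86 in the 12 alternatives that left out no single library. The epicardial covariate left 6 of all 15046 genes called in this comparison, against 391 without it. Its averaged Nipbl effect was 0.45 (SE 0.13, edgeR adjusted p 0.0342), lost without any 1 of 12 libraries (wild-type 4, 6, 9 and 10, Isl1_het 4, 7, 8 and 9, Nipbl_het 3 and 6, double_het 6 and 7), with adjusted p up to 0.0779, and also lost with no low-count filter, with the epicardial covariate, and without set 2, 5 or 6, while the change stayed between 0.37 and 0.66 with an unadjusted p under 0.05 in 12 of 12 alternatives. Pcsk6, a proprotein convertase that cleaves ligand precursors, fell in the averaged Nipbl effect by 0.40 (SE 0.11, adjusted p 0.0423, edgeR), a call lost without any 1 of 16 libraries (wild-type 5, 6, 9 and 10, Isl1_het 4, 5, 6, 7 and 9, Nipbl_het 3, 8 and 9, double_het 1, 3, 5 and 8), with adjusted p up to 0.0866. It was also lost with no set term (−0.21), with no low-count filter, with the epicardial covariate, and without set 2, 5 or 6. The replicate number in place of the set number lost it too. The change stayed between −0.45 and −0.35 in the 37 fits that left out 1 library, each with an unadjusted p under 0.05 (edgeR). Over the other 12 alternatives it ran from −0.47 to −0.19, with an unadjusted p under 0.05 in 10.

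The readout genes of the pathway gave 0 of 19 past the threshold in each of the 8 comparisons. Id1, Id2 and Id3, direct targets of BMP-activated Smads, had fitted changes in double_het against wild-type of 0.06 (SE 0.18), 0.07 (SE 0.17) and 0.27 (SE 0.21). The inhibitory Smads Smad6 and Smad7, which are induced by the pathway and dampen it, were at 0.22 (SE 0.16) and 0.09 (SE 0.11). Bmp10, the ligand of trabecular myocardium, ran from 5.77 to 31.2 CPM in wild-type and from 2.94 to 44.6 in double_het, with a fitted change of 0.20 (SE 0.31, adjusted p 0.873, edgeR). With no set term that was 0.86 (unadjusted p 0.0433, edgeR) and without set 5 it was −0.14. In Nipbl_het against wild-type Bmp10 was at −0.33 (SE 0.30).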

How the data were processed

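Gene expression was measured by paired-end RNA sequencing in 37 mouse hearts. The authors deposited raw counts per gene symbol, not normalized, and STAR, featureCounts and GRCm38 are named in the submitters' processing notes without versions. All 37 columns were assigned to genotypes from the labels, and 0 other value columns were present.

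Low genes were removed by filterByExpr (count of at least 10, total of at least 15), and TMM-scaled counts entered 1 quasi-likelihood model of genotype plus set number in edgeR 4.0.16 under R 4.3.3. Tests were two-sided, with Benjamini-Hochberg adjustment over all genes and a threshold of 0.05. Standard errors come from the F statistic and intervals are 95%. Log2 CPM for correlations used a prior count of 2. Exon lengths and positions come from GENCODE M21, promoters from RefSeq GRCm38.p6. Nipbl, Isl1 and all 9 ligands were named whatever their values. Pathway genes were named when past the threshold, with Bmp10, Id1, Id2, Id3, Smad6 and Smad7 always named, and each ligand had the 3 genes most like it named, except 1 gene that is not reported here. The members and lists were chosen with earlier results of these data known. The model was tested on simulated data. Chi-square divided by its degrees of freedom was at least 7.46 in all 153 library pairs of 1 genotype, so none looked like a library deposited again. Alternatives were other covariates, DESeq2 1.42.0, another scaling, other filters, and sets or libraries left out. Depth of 23.4 M to 51.0 M counts sets the counting error.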

Additional observations from a re-analysis of the deposited data

Results flagged for a closer look

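Of 36 combinations of a ligand and a genotype, 3 held a library far from the rest of its group, and chance flags about 1 in 20. Bmp2 was at 18.3 CPM in the library labelled Nipbl_het replicate 2, with the next Nipbl_het library at 38.0. Tgfb2 was at 37.8 CPM in the same library, with the next at 63.0. Bmp2 was at 32.0 CPM in Isl1_het replicate 4, with the next Isl1_het library at 41.9.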

How the results depend on the processing

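Across 49 alternatives, 3528 ligand changes were refitted and 1 passed the threshold: Inhba in double_het against wild-type, at 0.97 (adjusted p 0.0128, edgeR), when the replicate number of the titles stood as a block in place of the set number. That fit called 1 of 9 ligands in this comparison, and 0 of 9 were called in the other 391 counts. The replicate numbers do not pair the hearts. Of same-numbered pairs from different groups, 17 of 54 correlated above 0.1 (median 0.03), against 152 of 459 pairs with other numbers (median −0.01). Only 3 of 37 libraries correlated best with their own number. That fit called 610 of all genes in this comparison against 391 with the set term, but dropping the set term alone gave 570. It did not call Tgfbr3, Amhr2 or Pcsk6 where the set fit did. The sign of a change differed in 165 refits, none of them past the threshold before or after. Leaving out each of the 37 libraries in turn gave between 0 and 0 ligands called in every comparison. Bmp4 in Nipbl_het against wild-type came to 0.40 (adjusted p 0.0573, edgeR) without set 5. Inhba has 51 to 387 counts per library, and its wide intervals limit what can be said of it. DESeq2 called 3.05% of all genes in Nipbl_het against wild-type and 0.751% in the averaged Isl1 effect, where edgeR called 1.71% and 0.173%.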

Other observations

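The library labelled Nipbl_het replicate 2 lay outside all 36 other libraries for 6 of the 9 ligands, below them for Bmp2, Bmp4, Tgfb2 and Inhba and above them for Bmp5 and Tgfb1. It did so for 38 of the 76 pathway genes tested and for 57.7% of all 15046 genes, so these shares are near its own background and are not particular to the pathway. Bmp6, Bmp7, Tgfb3, Bmp10 and Tgfbr3 were within the range of the others. Of the readout genes below, Id4 was added after its values were seen. Id1 was at 18.8 CPM against 63.5 to 134 in the other 36 libraries, Id2 at 35.97 against 127 to 232, Id3 at 19.9 against 126 to 253, and Id4 at 1.17 against 8.94 to 25.1. Smad6 was at 42.7 CPM against 117 to 198, while Smad7 was at 74.5 against 29.8 to 48.1. The activin inhibitor Fstl3 was at 22.9 CPM against 4.77 to 12.9. This is 1 heart, and the comparison has no replicate.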
